A study of Mus musculus with 18 samples.

Results

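The 10 genes described here were S100a4, S100a6, S100a10, S100a11, Lgals1, Lgals3, Anxa1, Anxa2, Vim and Ahnak, a set of S100, galectin, annexin and filament or scaffold genes that activated T cells transcribe. They were taken by name from the 33006 gene rows of a single-cell RNA table, and all 10 were found and passed the filter on low counts over all cells and in resting and activated cells. In Treg-annotated cells Anxa1 did not pass it. The table holds 26652 CD4 T cells from the spleens of male mice in 18 samples, sorted as DAPI-negative, TCRβ+ and CD4+ and captured with 10x Genomics 3′ chemistry. Levels are counts of unique molecular identifiers (UMIs, 1 per captured RNA molecule) scaled to each sample's UMI total as CPM, the usual counts-per-million scale, and a class or cluster is the authors' own annotation of each cell.

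∆Foxp3 mice carry Foxp3DeltaEGFPiCre, in which Foxp3 makes no functional protein, on a B6 background with ROSA-YFP. In the first experiment, made with V2 chemistry, 2 ∆Foxp3 samples and 2 WT samples (B6 Foxp3-IRES-GFP) came from mice of 3 weeks, 1 sample per channel. The second experiment, made with V3 chemistry in 2 tubes of pooled, hashtagged samples, has 2 ∆Foxp3 samples of 3 weeks and 2 WT samples (Foxp3-IRES-GFP x CD45.1) of 9 weeks. It also has 3 ∆Foxp3 and 3 WT samples from mixed bone marrow chimeras, and 2 sorted GFP+ Treg and 2 sorted GFP- Tconv samples of WT mice of 9 weeks. Chimera recipients were 7 weeks old when they received 1000 rad and CD3-depleted marrow cells, 50% from each donor genotype, and were harvested 10 weeks later. ∆Foxp3 donors also carried ROSA-YFP and CD45.1/2, WT donors CD45.1, and recipients CD45.2; donors were 21 days old. Both genotypes in a chimera therefore developed beside WT Treg cells. Age and genotype cannot be told apart in the V3 mice, and V2 and V3 values were never pooled. The same hashtag marks samples 1 and 2 of each V3 mouse and sorted group, in different tubes, so these 2 may be 1 animal captured in both tubes; no label says that replicates are separate animals, and the errors may be technical.

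S100 proteins are small calcium-binding proteins with EF hands. S100a4 and S100a6 bind cytoskeletal and signalling partners, S100a10 pairs with annexin A2 without needing calcium, and S100a11 pairs with annexin A1. Galectins bind β-galactosides: Lgals1 encodes galectin-1 and Lgals3 galectin-3. Annexins bind phospholipid membranes when calcium rises, vimentin forms intermediate filaments, and Ahnak is a giant scaffold that binds the S100a10–annexin A2 pair. Naive T cells hold little RNA of several of these genes, and effector, memory and tissue-homing T cells hold more.

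The 4 S100 genes lie in the S100 cluster of mouse chromosome 3 (GRCm38). S100a4 (chr3:90603771-90606045) and S100a6 (chr3:90612882-90624181) are near neighbours with S100a5 between them, while S100a11 (chr3:93520488-93526287) and S100a10 (chr3:93555080-93564643) are adjacent, with 28792 bp between them. The other members are spread over Lgals1 (chr15:78926725-78930465), Lgals3 (chr14:47367751-47386160), Anxa1 (chr19:20373428-20390944), Anxa2 (chr9:69453620-69491795), Vim (chr2:13573927-13582826) and Ahnak (chr19:8989284-9076914). RefSeq promoters (GRCm38.p6) matched 8 members, all but S100a10 and Lgals1. Of these, the 5 with a match to TATAAA or TGANTCA are printed, as the 150 bases before the RefSeq start, 5′ to 3′ on the gene's strand. S100a6, Lgals3 and Ahnak had neither element and are not printed. Capitals mark TATAAA, the core of a TATA box, and TGANTCA, the AP-1 site bound by Fos and Jun dimers.
S100a4, chr3:90603620-90603769, + strand: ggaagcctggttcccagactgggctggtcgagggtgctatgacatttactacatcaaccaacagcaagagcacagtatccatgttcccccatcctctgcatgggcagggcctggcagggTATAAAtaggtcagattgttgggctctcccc
Vim, chr2:13574161-13574310, + strand: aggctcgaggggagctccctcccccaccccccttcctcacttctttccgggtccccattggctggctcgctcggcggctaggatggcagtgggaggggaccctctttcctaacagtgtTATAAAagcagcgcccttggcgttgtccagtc
Anxa1, chr19:20390672-20390821, - strand: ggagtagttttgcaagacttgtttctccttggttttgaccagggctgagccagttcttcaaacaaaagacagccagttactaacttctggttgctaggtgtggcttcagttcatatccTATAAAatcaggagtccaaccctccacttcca
Anxa2, chr9:69453533-69453682, + strand: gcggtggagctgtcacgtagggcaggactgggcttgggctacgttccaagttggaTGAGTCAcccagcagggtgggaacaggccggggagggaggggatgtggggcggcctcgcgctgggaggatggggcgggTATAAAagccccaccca
S100a11, chr3:93520346-93520495, + strand: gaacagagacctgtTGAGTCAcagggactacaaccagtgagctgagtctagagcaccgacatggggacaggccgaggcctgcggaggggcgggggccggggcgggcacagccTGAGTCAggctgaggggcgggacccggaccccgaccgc
In S100a4, Vim and Anxa1 the TATAAA stood at about the usual TATA box distance, its first base 31, 32 and 32 bases before the start. TATAAA was found in 4 of the 8 members' promoters (250 bases before to 50 after the start, both strands), against 13.6% of all 32851 RefSeq promoters. TGANTCA was found in 2 of 8, S100a11 with 2 copies and Anxa2 with 1, against 7.81% of all promoters. GGGCGG, the GC box, was in 4 of 8 against 35.7%, and neither TTCNNNGAA (STAT) nor the κB site of NF-κB was found, against 8.30% and 0.155%. None of these 5 elements was in all 8 promoters. A letter match is no evidence of binding. The RefSeq start of Vim, Anxa1, Anxa2, S100a11, S100a6 and Lgals3 lies inside the gene span given above, which begins further upstream.

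Samples held 148 to 5271 cells and 955097 to 14887898 UMIs. Cre UMIs, which mark the ∆Foxp3 allele, numbered 12 and 17 in ∆Foxp3 V2 samples and 27 and 33 in ∆Foxp3 V3 samples, against 0 in every WT sample; ∆Foxp3 chimera samples had 2, 0 and 3. Foxp3 RNA itself was sparse (22 and 10 UMIs in ∆Foxp3 V2 samples, 34 and 29 in WT), and a 3′ count does not check the disruption. The 12 myeloid markers summed to 207 and 225 CPM in ∆Foxp3 V3 mice against 86.4 and 107 in WT, and to 122 and 137 in ∆Foxp3 V2 mice against 95.8 and 95.2 in WT. Of 9 and 7 tested, 5 were called higher in the V3 mice and 1 in the V2 mice. Most of each sum was Cst3, Ly6g was at 0 in all 18 samples, and Lyz2 lay between 0.4 and 8.1 CPM. After every cell with a UMI of a myeloid marker other than Cst3 was left out, 9 members passed in the V2 mice and 10 in the V3 mice. The share of all genes called in those fits is not given here, and cells with Cst3 as their only myeloid marker were kept. B cell markers summed to 121 and 107 CPM in ∆Foxp3 V2 mice and 188 and 221 in WT, and to 52.0 and 50.5 in ∆Foxp3 V3 mice and 188 and 201 in WT. These markers parted: Ighm was called lower in ∆Foxp3 mice (-0.95 in V2, -2.77 in V3), as was Cd79a in V3 (-1.14). Cd79b was called higher (1.05 in V2, 1.32 in V3). Erythroid and platelet markers summed to 456 CPM in ∆Foxp3 V2 sample B and at most 129 in the other mouse samples. The 5 markers of CD8 T and NK cells summed to 59.2 and 63.7 CPM in ∆Foxp3 V2 mice and 40.4 and 34.5 in WT, and to 37.0 and 48.4 in ∆Foxp3 V3 mice and 21.1 and 27.5 in WT. Of these Cd8a was called higher in ∆Foxp3 mice in V2 (4.63 ± 0.40 on the log2 scale) and V3 (3.88 ± 0.85), also among V2 resting (3.23) and activated cells (4.71), Eomes was called higher (2.03) and Klrb1c lower (-2.45) in V2, and Ncr1 was at 0 in most samples. The part of these cell types in the results was not tested.

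In 3-week-old mice, all 10 genes were higher in ∆Foxp3 than in WT CD4 T cells. S100a4 measured 359 and 602 CPM in ∆Foxp3 V2 samples, against 49.7 and 44.7 in WT samples. S100a6 measured 485 and 809.9 CPM in ∆Foxp3 and 82.6 and 96.5 in WT. For both genes every ∆Foxp3 sample lay several times above both WT samples, and the changes were 3.28 ± 0.24 and 2.79 ± 0.24 on the log2 scale (± SE; adjusted p = 0.000974 and 0.00168 by edgeR's quasi-likelihood test, n = 2 each). S100a11 followed with 433 and 693 CPM in ∆Foxp3 against 172 and 172 in WT. S100a10 was already abundant in WT, with 729.9 and 985 CPM in ∆Foxp3 against 600.2 and 582 in WT, and rose by only 0.48 ± 0.13 (adjusted p = 0.0447). By the same test 14.4% of the 10675 genes tested were called higher and 9.61% lower, and the median log2 change was 2.33 over the 10 members and -0.01 over all genes. S100a10 and Vim did not pass when either WT sample was left out.

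Lgals3, which encodes the chimeric galectin that forms oligomers, had the largest change of the 10. It measured 191 and 315 CPM in ∆Foxp3 V2 samples and 4.97 and 4.92 in WT samples, a log2 change of 5.61 ± 0.27 (adjusted p = 0.000309). Lgals1, a dimeric galectin that binds T cell surface glycans, measured 1175 and 1942 CPM in ∆Foxp3 and 309 and 297 in WT. Both galectins were thus higher in each ∆Foxp3 sample, Lgals3 from a WT level close to absence and Lgals1 from a substantial one. The annexins Anxa1 (13.3 and 31.6 CPM in ∆Foxp3 against 2.02 and 2.90 in WT) and Anxa2 (97.4 and 154 against 22.2 and 23.8) were also higher in ∆Foxp3 samples. Vim measured 447 and 694 CPM in ∆Foxp3 and 245 and 270.4 in WT, and Ahnak 54.6 and 89.5 in ∆Foxp3 and 18.9 and 14.5 in WT. The ∆Foxp3 sample B was above sample A for all 10 genes; it also held fewer cells of the resting class (54.0% against 72.5% in sample A, and 83.6% and 82.1% in WT).

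**Figure D1:**
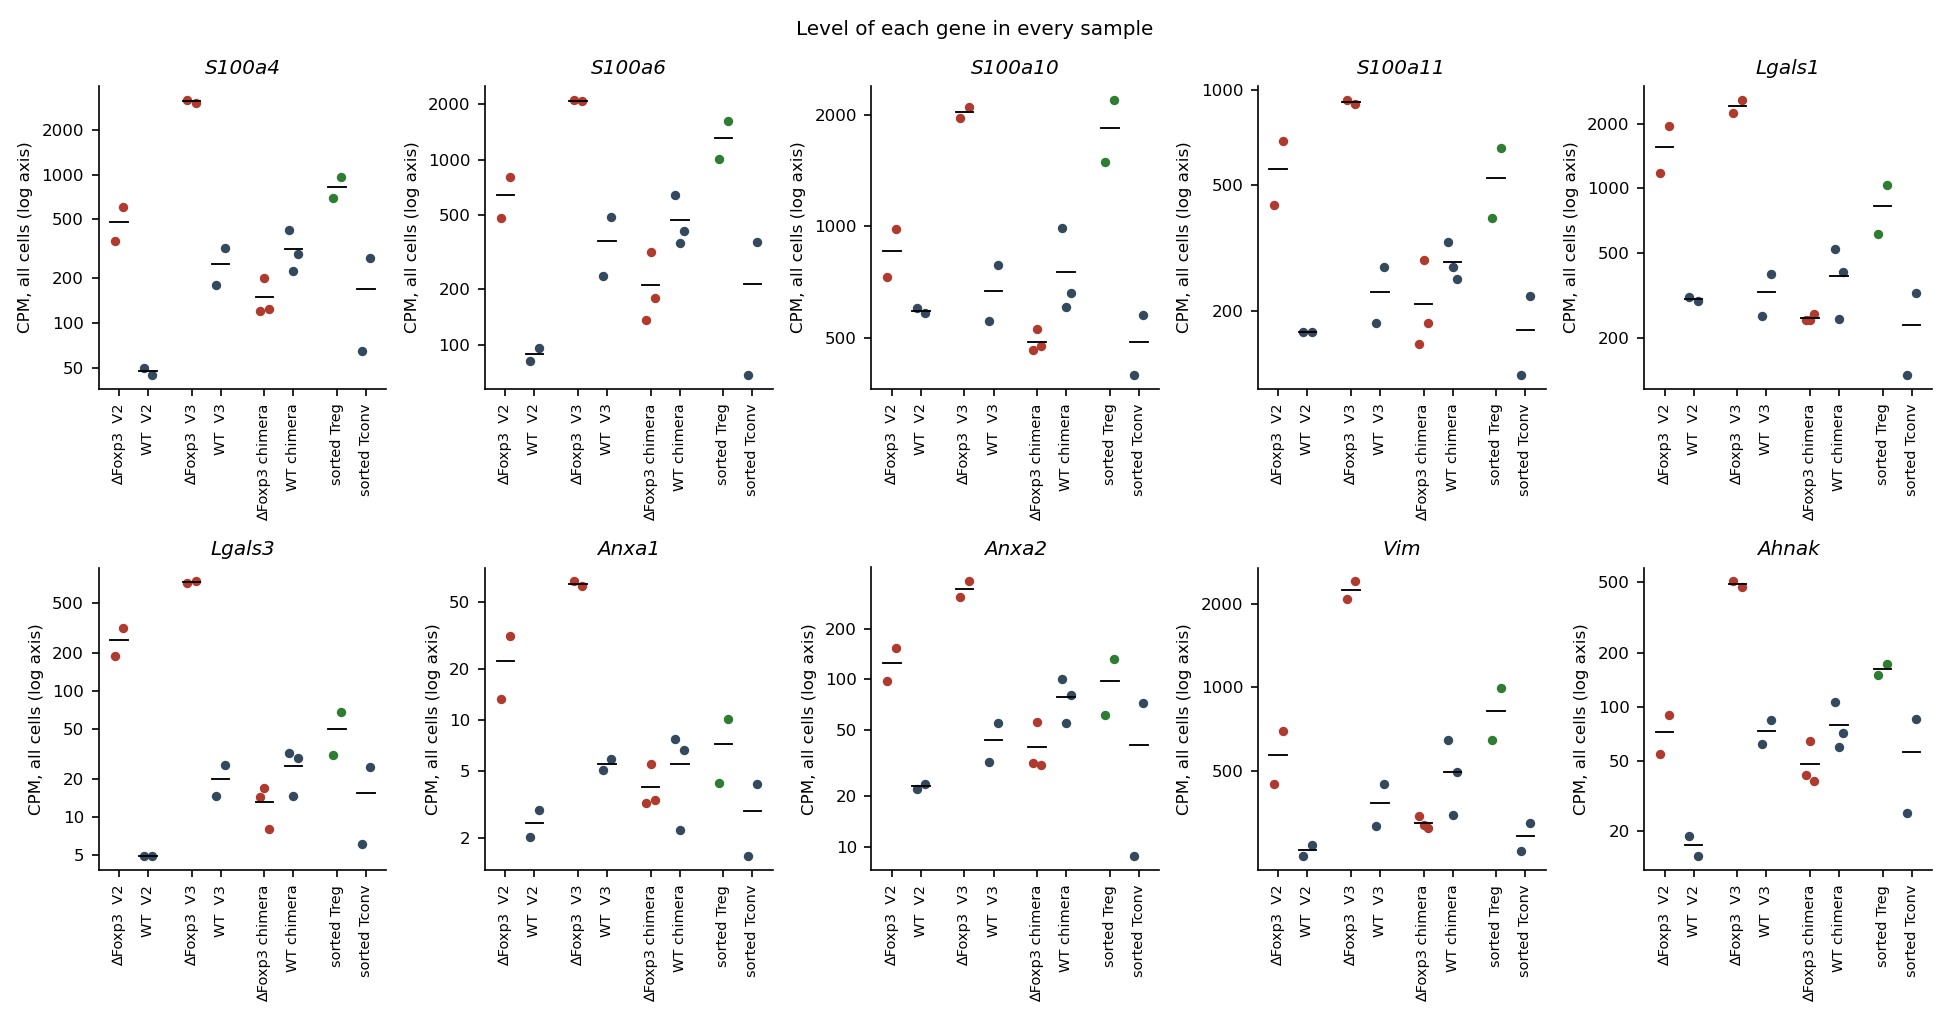
CPM of each gene over all cells of a sample (log axis), with a point per sample and a bar at the group mean, in ∆Foxp3 and WT mice (V2, V3), ∆Foxp3 and WT chimera cells, and sorted WT Treg and Tconv cells. In both chemistries the ∆Foxp3 mouse samples lie above the WT mouse samples for every gene, while the chimera samples of the genotypes overlap or lie close.

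In the V3 mice the members were again higher in ∆Foxp3 than in WT samples. The share of all genes without overlap between genotypes is not given here for either chemistry. S100a4 measured 3206 and 3051 CPM in ∆Foxp3 V3 mice, against 179.9 and 322 in WT mice. Vim measured 2079 and 2413 CPM in ∆Foxp3 and 315 and 448 in WT, and Ahnak 507 and 469 in ∆Foxp3 and 62.1 and 84.9 in WT. All 10 members passed the test, where 22.1% of all genes were called higher and 20.9% lower, and the members' median log2 change was 2.61. Lgals3 again changed most (5.04 ± 0.37, adjusted p = 8.05e-08) and S100a10 least (1.39 ± 0.20, adjusted p = 7.08e-05). Each tube holds 1 sample of each genotype, and all 10 were higher in both; S100a4 differed by 4.16 in tube A and 3.24 in tube B, Lgals3 by 5.61 and 4.85. Samples of 1 tube also share free RNA.

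Part of the all-cell difference can be set against the mix of classes. With the WT class shares applied to both genotypes, the V2 log2 ratio of S100a4 was 2.48 against 3.35 with each sample's own shares, and that of Lgals3 4.73 against 5.68. For S100a10 it was -0.04 against 0.54, and with the ∆Foxp3 shares applied to both it was 0.15, so even its sign depended on the shares used. Vim stood at 0.61 with WT shares and 1.05 with ∆Foxp3 shares, against 1.14 with own shares. In V3 the ratios were lower with ∆Foxp3 shares. With WT shares the ratio was 3.49 for S100a4 and 4.93 for Lgals3, and with ∆Foxp3 shares 2.34 and 3.96, against 3.64 and 5.17 with own shares. S100a6 stood at 1.21 with ∆Foxp3 shares, against 2.51 with own shares, and all 10 stayed above 0.

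**Figure D2:**
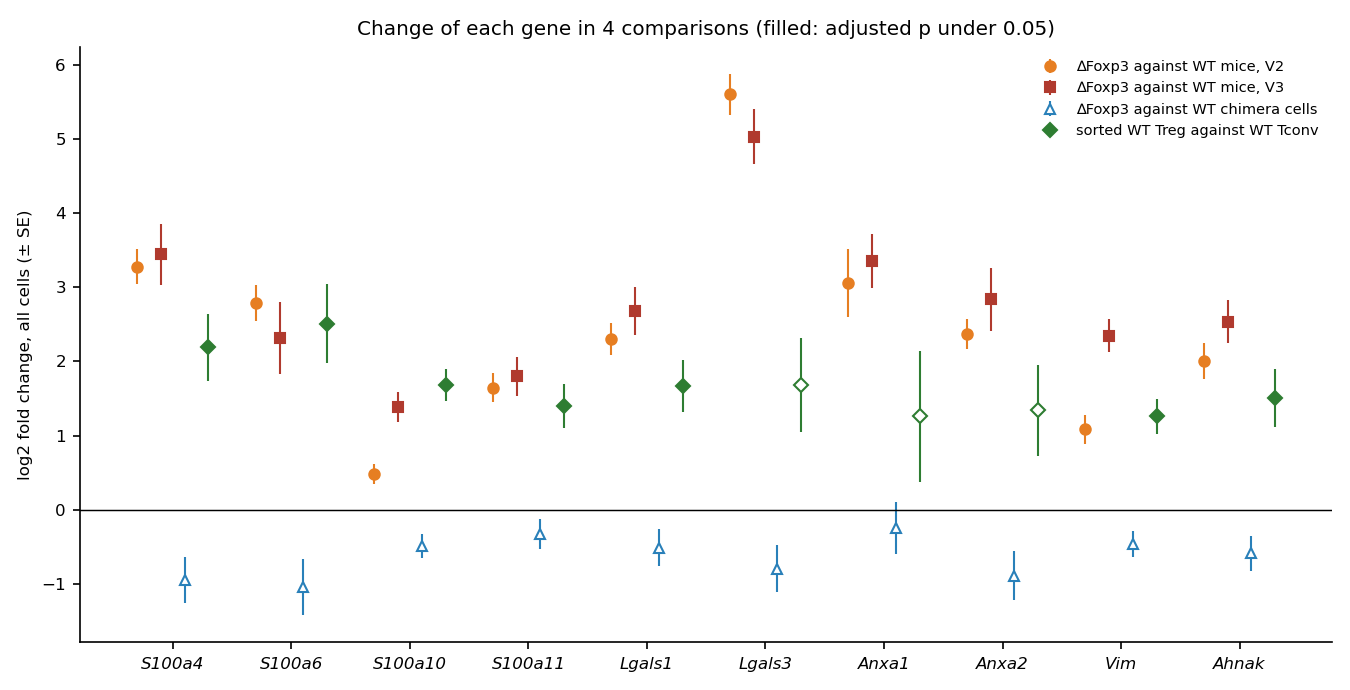
Log2 fold change (± SE) of each gene over all cells in 4 comparisons, ∆Foxp3 against WT mice in V2 and V3, ∆Foxp3 against WT cells of chimeras, and sorted Treg against Tconv cells, with filled symbols where the adjusted p is under 0.05. The mouse comparisons lie above 0 for all 10 genes, with Lgals3 highest, and the chimera comparison lies below 0 with no filled symbol.

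Within the annotated resting conventional cells (Tconv) of 3-week V2 mice the 10 genes parted. S100a4 measured 71.5 and 100.3 CPM in ∆Foxp3 resting cells and 8.13 and 6.78 in WT resting cells. Lgals3 measured 41.0 and 34.2 CPM in ∆Foxp3 and 1.79 and 1.51 in WT. Lgals1 measured 433 and 492 CPM in ∆Foxp3 and 204 and 198 in WT. These ∆Foxp3 levels were far below those of ∆Foxp3 activated cells, but they stood clear of WT resting cells. For Lgals3 they also lay above the WT activated cells of V2 mice (25.6 and 26.1 CPM). The 6 members that rose were S100a4 (3.44 ± 0.18), S100a6 (2.97 ± 0.22), Lgals1 (1.19 ± 0.08), Lgals3 (4.51 ± 0.19), Anxa1 (2.38 ± 0.51) and Anxa2 (1.97 ± 0.14). S100a10 went the other way, with 327 and 351 CPM in ∆Foxp3 and 439 and 436 in WT, and fell by 0.38 on the log2 scale (SE 0.07, adjusted p = 0.00871). S100a11, Vim and Ahnak did not pass (0.41 ± 0.15, 0.07 ± 0.12 and 0.53 ± 0.38). Of all genes, 12% were called higher and 7.63% lower in this class. Without ∆Foxp3 sample B, Vim and Ahnak measured -0.12 and -0.01, so even their direction rests on that sample. The S100a10 decrease did not pass when either WT sample was left out.

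The resting class differed in its own markers between genotypes, far more in V3 than in V2. Ccr7, which encodes a chemokine receptor that marks naive cells, was alike in V2, at 457 and 489 CPM in ∆Foxp3 resting cells and 458 and 489.6 in WT. Activation genes nonetheless rose in that V2 class: the effector chemokine Ccl5 was at 335 and 859.7 CPM in ∆Foxp3 and 81.6 and 65.6 in WT, and Cxcr3 (2.31), Il2rb (2.57) and Tnfrsf4 (2.91) were called higher, while the naive-state genes Dapl1 (-1.59), Actn1 (-1.30) and Lef1 (-0.57) were called lower. Cd44, a marker of activated cells, did not pass there (0.30 ± 0.19). In V3 Ccr7 was at 126 and 78.3 CPM in ∆Foxp3 resting cells, against 376 and 359.5 in WT, lower in both ∆Foxp3 samples. Cd44 was at 92.4 and 94.7 CPM in V3 ∆Foxp3 resting cells and 11.4 and 20.5 in WT, and Ccl5 at 2103 and 2023 against 42.7 and 40.4. The annotated class thus held cells that go against its name in the V3 ∆Foxp3 samples: 30.5% and 27.5% of them had a Ccr7 UMI, against 80.5% and 87.0% in WT samples. In V2 the shares were 68.0% and 64.8% in ∆Foxp3 and 66.7% and 71.0% in WT.

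In that V3 class all 10 members were called higher (22.2% of all genes were), with S100a4 at 2514 and 2657 CPM in ∆Foxp3 and 21.9 and 45.5 in WT, and Vim at 1757 and 2162 in ∆Foxp3 and 233 and 283 in WT. In the resting cells with a Ccr7 UMI (145 and 117 ∆Foxp3 cells, 530 and 220 WT cells), S100a4 measured 918 and 1574 CPM in ∆Foxp3 and 23.1 and 12.98 in WT. S100a10 measured 739 and 1132 CPM in ∆Foxp3 and 349 and 284 in WT. For both genes the ∆Foxp3 samples stood above WT, sample 2 further than sample 1. All 10 members passed there as well, against 9.68% of all genes higher and 8.16% lower, from S100a4 (5.73 ± 0.19) and Lgals3 (4.83 ± 0.28) down to Vim (1.82 ± 0.17) and S100a10 (1.28 ± 0.12). The same choice of cells in V2 left S100a4 at 67.6 and 48.3 CPM in ∆Foxp3 and 5.98 and 5.25 in WT. There S100a4 (3.42 ± 0.18), S100a6 (2.52 ± 0.12), Lgals1 (0.98 ± 0.08), Lgals3 (4.50 ± 0.29) and Anxa2 (1.80 ± 0.18) rose and S100a10 fell (-0.49 ± 0.07), with 10.2% of all genes higher and 7.45% lower; Anxa1, called in the whole class, was too low to be tested there, at 3.08 and 1.31 CPM in ∆Foxp3 and 0.718 and 0.600 in WT. S100a4, S100a6, Lgals1, Lgals3 and Anxa2 were the members called higher in both. In chimeras 0 members passed in such cells (0.453% of all genes), with S100a6 at -0.55 ± 0.16 and an unadjusted p of 0.00112.

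**Figure D3:**
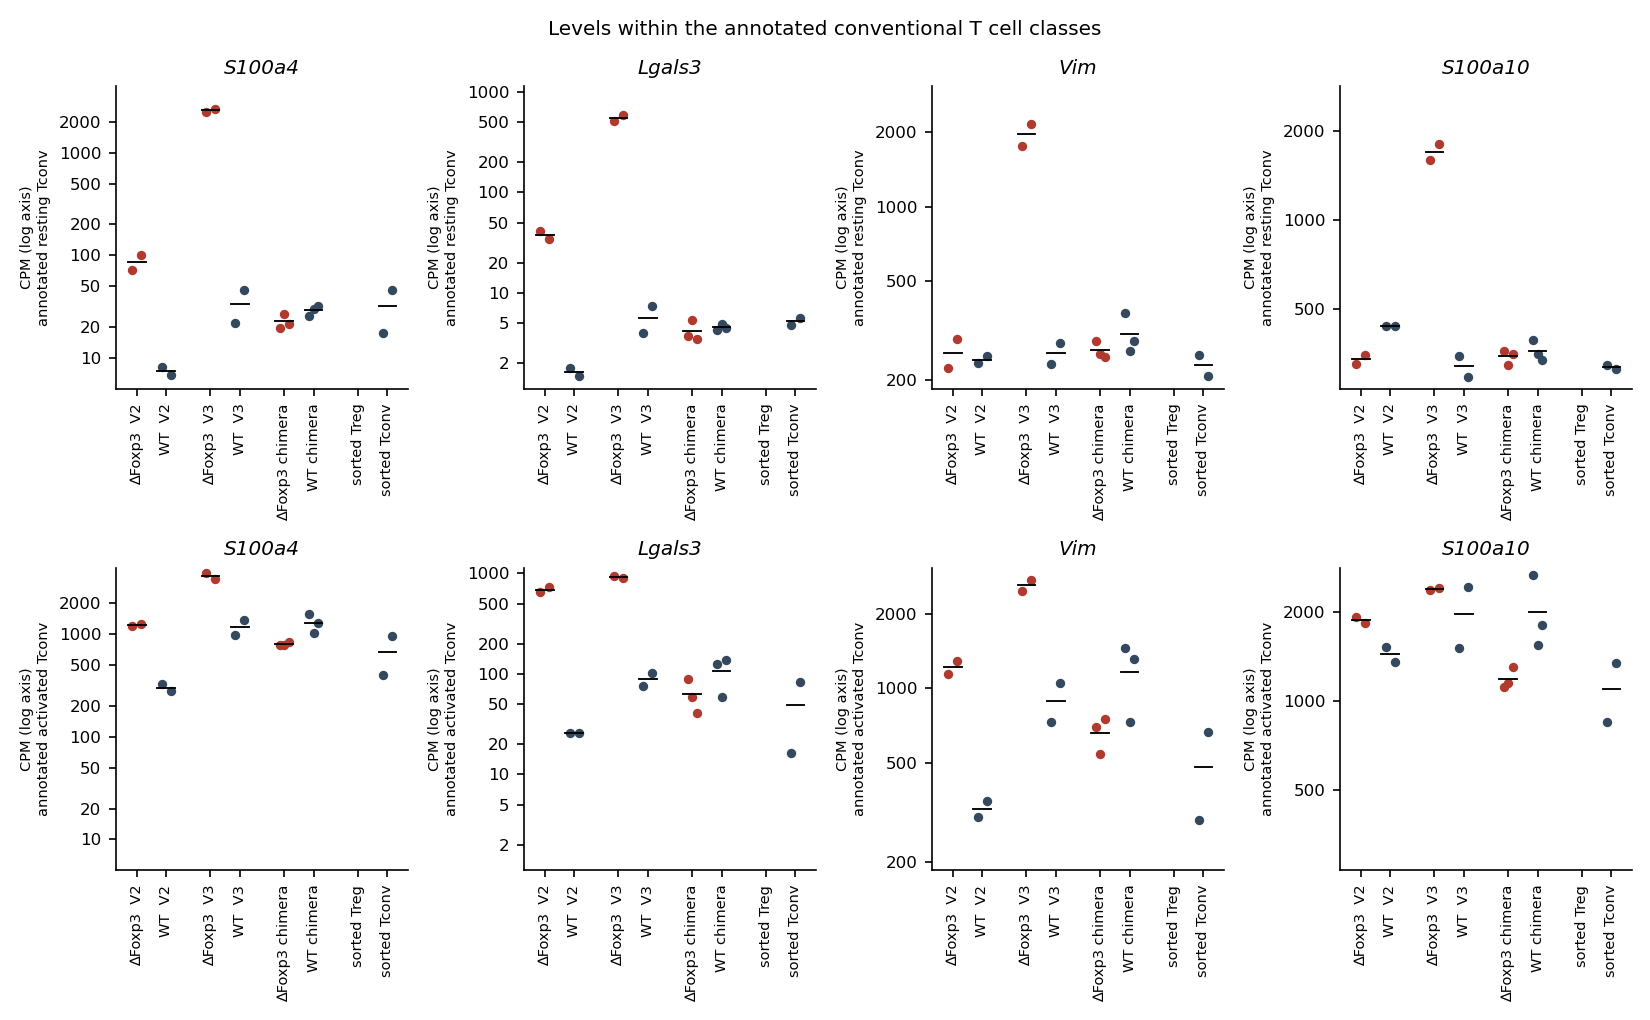
CPM (log axis) of S100a4, Lgals3, Vim and S100a10 within annotated resting (top row) and activated (bottom row) Tconv cells, with a point per sample and a bar at the group mean; sorted Treg samples hold no Tconv cells. V2 ∆Foxp3 resting cells stand above WT for S100a4 and Lgals3 and below WT for S100a10, and V3 ∆Foxp3 resting cells stand far above all other resting samples.

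Activated Tconv cells also differed by genotype. In V2 mice S100a4 measured 1192 and 1255 CPM in ∆Foxp3 and 327 and 277 in WT activated cells, and Lgals3 648 and 731 in ∆Foxp3 and 26.1 and 25.6 in WT. Vim measured 1145 and 1289 CPM in ∆Foxp3 and 301 and 351 in WT. All 10 members rose, between 0.39 ± 0.09 for S100a10 and 4.73 ± 0.14 for Lgals3, where 9.16% of all genes were called higher. NKT cells made up 99 of 1268 cells of that class in ∆Foxp3 V2 mice and 312 of 1078 in WT, and their genes Zbtb16 (-4.04) and Klrb1c (-3.94) were called lower. Without NKT cells 9 members passed, among them S100a4 (1.58), Vim (1.49) and Lgals3 (4.48), and S100a10 (0.24) did not. How many of all genes were called without NKT cells is not given here. In V3 mice S100a4 measured 3904 and 3450.2 CPM in ∆Foxp3 and 974 and 1377 in WT, and Lgals3 935 and 909.9 in ∆Foxp3 and 75.8 and 102 in WT. There 7 members rose, Lgals3 most (3.41 ± 0.37), against 5.31% of all genes. S100a6 (0.65 ± 0.29), S100a10 (0.31 ± 0.23) and S100a11 (0.48 ± 0.21) did not pass; S100a10 was at 2368 and 2410.3 CPM in ∆Foxp3 and 1507 and 2432 in WT, and its ratio within tube B was -0.01. With the replicate number, which marks the tube, as a block S100a6 also passed, and without WT sample 1 the members that passed were S100a4 and Lgals3 alone. The class is not of 1 kind: 344 of its V3 ∆Foxp3 cells came from the cluster Tconv_activated_2 and 217 from the dividing cluster, against 8 and 23 in V3 WT.

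Among cells annotated as Treg, which in ∆Foxp3 mice are Treg-like cells that lack Foxp3 protein, 8 of the 9 members tested were higher in both chemistries (8.54% of all genes in V2 and 3.6% in V3). S100a4 measured 627 and 820.5 CPM in ∆Foxp3 V2 and 52.6 and 43.7 in WT V2 cells. S100a11 measured 991 and 1286 CPM in ∆Foxp3 V2 and 215 and 203 in WT V2. S100a10 did not pass in either chemistry and measured 999.5 and 1158 CPM in ∆Foxp3 V2 and 985 and 903 in WT V2 (0.12 ± 0.11). Anxa1, too low to be tested, was at 3.33 and 5.68 CPM in ∆Foxp3 V2 and 0 and 1.75 in WT V2. Lgals3 stood at 526 and 434 CPM in ∆Foxp3 V3 and 4.96 and 5.69 in WT V3, where each WT value is 1 UMI, so no fold is given. Different clusters made up most of this class in the genotypes. In V2 it held 186 Treg_activated, 85 Treg_resting and 31 Treg_typeA cells in ∆Foxp3 mice, against 99 Treg_activated and 391 Treg_resting cells in WT, and in V3 the first 2 numbered 85 and 45 in ∆Foxp3 against 29 and 37 in WT. Within the V2 clusters S100a4 was at 1087 and 1131 CPM in ∆Foxp3 and 220.0 and 174 in WT activated Treg cells, and at 64.9 and 43.3 in ∆Foxp3 and 5.20 and 10.9 in WT resting Treg cells, where each value rests on 13 UMIs or fewer.

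Single cells were also counted by how many members they held, a share that follows the level of each gene; whether the genes met in a cell more often than their levels give was not tested. After each cell was thinned to 1500 UMIs, 0.965 and 3.34% of resting cells of ∆Foxp3 V2 mice held UMIs of 5 or more of the 10 genes, against 0.0227 and 0.155% in WT. Among activated cells the shares were 61.8 and 71.5% in ∆Foxp3 V2 and 21.7 and 19.7% in WT V2, and 85.7 and 88.3% in ∆Foxp3 V3 and 38.7 and 47.1% in WT V3. The V3 ∆Foxp3 resting class stood at 57.8 and 63.4%, against 0.152 and 0.791% in WT, nearer to activated than to other resting samples. For single genes at the same depth, S100a4 UMIs were found in 61.3 and 68.0% of V3 ∆Foxp3 resting cells and 3.17 and 3.17% of WT resting cells of the same tubes (2.49% to 4.33% in the other V3 resting samples). Without thinning they were found in 69.1 and 77.0% of ∆Foxp3 and 11.2 and 10.7% of WT cells.

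**Figure D4:**
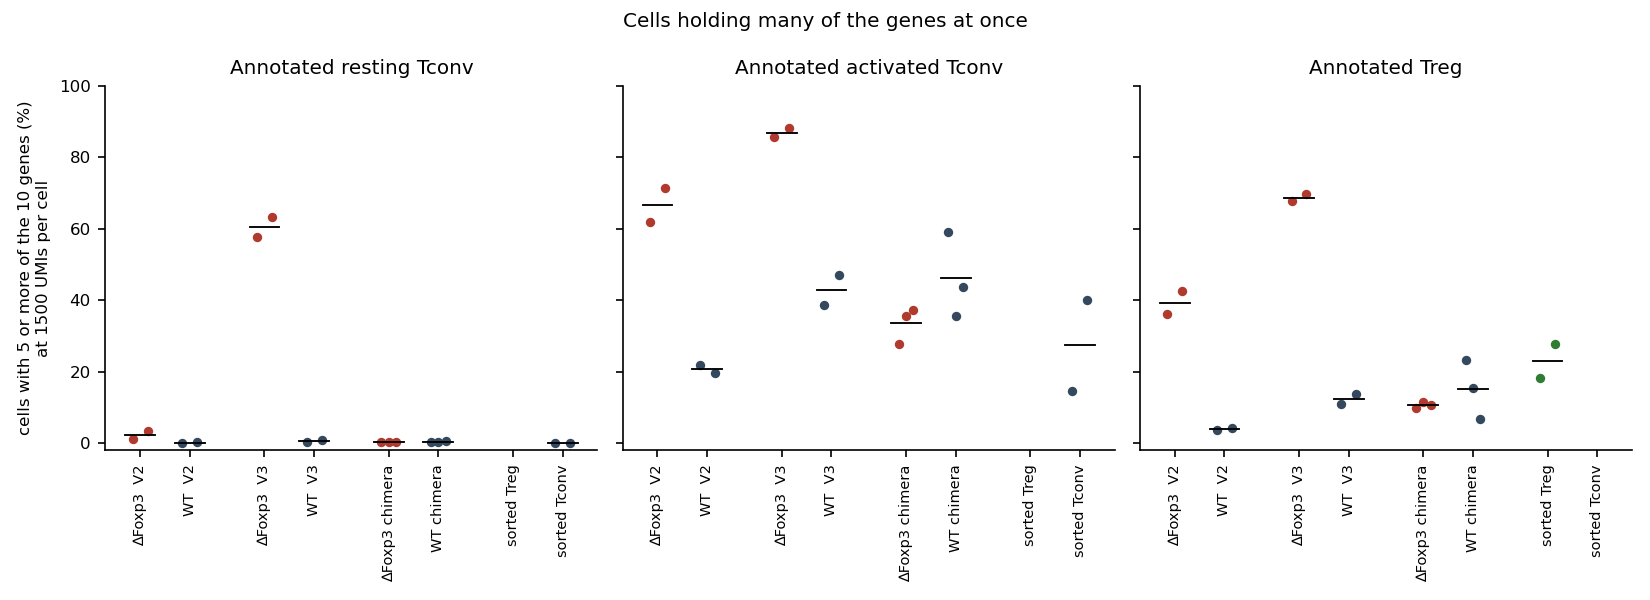
Share of cells (%) with UMIs of 5 or more of the 10 genes at 1500 UMIs per cell, in annotated resting Tconv, activated Tconv and Treg cells, with a point per sample and a bar at the group mean; classes of fewer than 20 cells in a sample are not drawn. The V3 ∆Foxp3 resting samples stand at 57.8 and 63.4%, while no other resting sample exceeds 3.34%.

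In mixed chimeras the mean over ∆Foxp3 samples was not above the mean over WT samples for any member. Within a single recipient this could differ, as for Lgals3 in recipient 2. In the 3 recipients S100a4 stood at 121, 202 and 123 CPM in ∆Foxp3 cells and 426, 225 and 290.0 in WT cells. Lgals3 measured 14.6, 17.0 and 8.07 CPM in ∆Foxp3 and 32.6, 14.7 and 29.6 in WT, and Lgals1 242, 242 and 257 in ∆Foxp3 and 521, 245 and 405 in WT. S100a4, S100a6, S100a10 and Vim did not overlap between genotypes and were lower in ∆Foxp3 cells, whereas the other members, Lgals3 and Lgals1 among them, overlapped. The share of all genes without overlap is not given here for chimeras. By edgeR's test 0 members passed, although 7 of 10 had an unadjusted p under 0.05. How large a share of all genes had such an unadjusted p is not given here. DESeq2 also called 0. The count of 0 depends on the filter on low counts, and without that filter most members passed. S100a4 had a log2 change of -0.95 ± 0.31 (adjusted p = 0.233). The members' median was -0.55, and 0.458% of all genes were called. Samples of 1 number come from 1 recipient, and with that pairing as a block S100a10 (-0.46) and Vim (-0.44) were lower in ∆Foxp3 cells. The samples of each pair lay in different tubes (∆Foxp3 in A, B and A, WT in B, A and B), so each paired difference is also a tube difference. Within tube A, 8 members were lower and 2 higher in ∆Foxp3 cells (median -0.48), and within tube B all 10 were lower (-0.72); S100a4 differed by -0.88 and -0.83. WT chimera samples also held more Treg-annotated cells (9.77%, 8.76% and 8.82%) than ∆Foxp3 chimera samples (2.39%, 4.84% and 2.27%), and its part in the lower levels was not tested.

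Inside classes the median log2 change of the members tested between chimera genotypes was -0.07 in resting, -0.60 in activated and -0.43 in Treg-annotated cells. Resting S100a4 was at 19.7, 26.9 and 21.3 CPM in ∆Foxp3 and 25.6, 29.6 and 31.9 in WT, and resting Lgals3 at 3.75, 5.34 and 3.48 in ∆Foxp3 and 4.31, 4.92 and 4.53 in WT. Activated S100a4 was at 790.0, 789.6 and 839.7 CPM in ∆Foxp3 and 1562, 1016 and 1278 in WT. The resting values of Lgals3 overlapped, and those of activated S100a4 did not. No member passed edgeR's test or DESeq2 in either class or among Treg-annotated cells, where 1.28%, 0.137% and 0.359% of all genes were called by edgeR. Without the filter on low counts some members passed in each of these classes. An unadjusted p under 0.05 was found for 1 member in resting, 6 in activated and 3 in Treg-annotated cells, each of them lower in ∆Foxp3 cells. Shares of all genes with such an unadjusted p are likewise not given here. With the recipient as a block, S100a6 was lower in ∆Foxp3 resting cells, S100a10, Lgals1 and Vim in ∆Foxp3 activated cells and S100a4 in ∆Foxp3 Treg-annotated cells. These paired differences are likewise differences between tubes.

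∆Foxp3 cells of chimeras stood well below ∆Foxp3 cells of intact mice. All 10 members were lower (27.5% of all genes were), by a median of -3.06 on the log2 scale. Lgals3 differed by -5.58 ± 0.29, S100a4 by -4.16 ± 0.36 and S100a10 by -1.81 ± 0.18, and all 10 stayed lower with the tube as a block. These groups differ in age (labelled 16 against 3 weeks, although a recipient of 7 weeks harvested 10 weeks later would be older than the label), host and irradiation as well as in the presence of WT Treg cells, which cannot be told apart here. The difference ∆Foxp3 minus WT was also set against that of chimeras by an interaction term in edgeR's test. In the V3 mice it also carries age (3 against 9 weeks). It was higher in V3 mice than in chimeras for 10 members over all cells (18.7% of all genes), 10 in resting (17.6%), 8 in activated (4.67%) and 8 in Treg-annotated cells (1.56%), and for 9 in resting cells with a Ccr7 UMI (7.55%). WT cells of chimeras and of WT mice (9 weeks) gave no call among the members (0.183% of all genes). The order of the V3 means of S100a4 was 3128 ± 109 CPM in ∆Foxp3 mice, 833 ± 195 in sorted Treg, 314 ± 103 in WT chimera, 251 ± 101 in WT mice, 171 ± 149 in sorted Tconv and 149 ± 46.0 in ∆Foxp3 chimera cells (± SD). The last 4 groups overlap with their neighbours in that order.

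In WT mice the members were also higher in sorted GFP+ Treg cells than in GFP- Tconv cells, though not all passed the test. The sorts differ in cell state as well. The resting Treg cluster held 213 of 562 sorted Treg cells, while the resting class held 85.1% and 73.0% of the cells in the sorted Tconv samples. The part of this difference in the results was not tested. S100a10 measured 1488 and 2194 CPM in Treg and 397 and 577 in Tconv samples. S100a6 measured 1006 and 1617 CPM in Treg and 69.2 and 359 in Tconv. Lgals1 measured 612 and 1029 CPM in Treg and 134 and 322 in Tconv. None of these overlapped, although the second sample of each sort was the higher. There 7 members passed, against 6.16% of all genes called higher, among them S100a10 (1.68 ± 0.21, adjusted p = 0.000121), S100a6 (2.51 ± 0.54, adjusted p = 0.00571) and Vim (1.26 ± 0.24, adjusted p = 0.00252). Lgals3 (1.68 ± 0.64, adjusted p = 0.104), Anxa1 (1.26 ± 0.88) and Anxa2 (1.34 ± 0.62) did not pass. Within both tubes all 10 were higher in Treg cells, S100a10 by 1.90 and 1.93. Without Tconv sample 1, S100a10 alone passed, and without Treg sample 2 S100a4, S100a10 and Vim did. The gene that rose least in ∆Foxp3 mice, S100a10, had the smallest adjusted p of the members between WT Treg and Tconv cells.

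Between the authors' clusters the levels varied widely; these are descriptions, and the tissue-like clusters were defined by the authors with Lgals1, S100a6 and Anxa2 among their markers. In V2 ∆Foxp3 mice S100a4 was at 2054 and 1931 CPM in tissue-like Tconv cells, 1846 and 1788 in Th1 cells, 236 and 424 in follicular helper (Tfh) cells and 68.2 and 76.1 in the main resting cluster. In WT V2 mice it was at 664 and 539 CPM in tissue-like, 651 and 727 in Th1, 82.6 and 34.9 in Tfh and 7.22 and 6.50 in main resting cells. Tfh cells, which stay in follicles, were low for S100a4 in both genotypes while being annotated as activated. Lgals3 in V2 ∆Foxp3 mice was at 1222 and 1439 CPM in tissue-like, 1018 and 1067 in Th1 and 619.8 and 826 in dividing cells. In WT V2 mice it was at 53.1 and 56.6 CPM in tissue-like, 40.0 and 66.1 in Th1 and 11.1 and 0 in dividing cells. Vim in NKT cells was at 345 and 458 CPM in ∆Foxp3 V2 and 15.8 and 13.4 in WT V2, the lowest Vim levels of any cluster in WT. Dividing cells held much Vim, 1523 and 1732 CPM in ∆Foxp3 and 642 and 395 in WT V2. S100a10 in the resting Treg cluster was at 369 and 419 CPM in ∆Foxp3 V2 and 802 and 814 in WT V2, another resting population in which ∆Foxp3 values lay below WT. Among sorted WT Treg cells, S100a4 was at 3333 and 2387 CPM in the tissue-like cluster, 572 and 613 in the activated and 18.0 and 68.4 in the resting cluster.

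Related genes are given as counts beside the 14.4% of all genes that rose and the 9.61% that fell in V2 ∆Foxp3 mice, and the 22.1% and 20.9% in V3. Of the other annexins, 2 of 5 tested rose in V2 ∆Foxp3 mice, among them Anxa6 (0.27 on the log2 scale), and 5 of 5 in V3, among them Anxa6 (1.12) and Anxa11 (0.68). Of the other galectin genes 2 of 6 rose in each, among them Lgals3bp, whose product binds galectin-3 (0.89 in V2). Among partners of the cell cortex and membrane, 8 of 19 rose and 1 fell in V2, among them the integrin Itgb1 (2.35), the proteolipid Plp2 (1.02), the adhesion protein Zyx (0.99) and the LIM protein Crip1 (0.71), and 9 of 20 rose and 2 fell in V3. Of the core actin genes only Actg1 (0.51) of 13 passed in V2, no larger a share than over all genes, whereas 10 of 13 rose and 1 fell in V3, Actg1 by 0.68. A list of 26 activation and memory genes had 22 higher in V2, such as Bhlhe40 (4.47), Ly6a (2.17), Maf (2.11) and Tnfrsf4 (1.98), and 25 higher and 1 lower in V3. Of 15 naive-state genes 10 fell in V2 (Actn1 -1.69, Lef1 -0.85) and 14 in V3. In chimeras Crip1 rose in ∆Foxp3 cells (1.77, adjusted p = 1.62e-06), Klrg1 fell (-1.87, adjusted p = 0.0251) and Dapl1 rose (0.67, adjusted p = 0.0076). Mitochondrially encoded genes were lower in ∆Foxp3 mice, 7 of 11 in V2 and 11 of 11 in V3, and the median mitochondrial share per cell was 5.04% and 4.93% in ∆Foxp3 V3 mice against 7.16% and 7.22% in WT; its part in the results was not tested.

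Over the 14 V3 samples the gene most like S100a4 in its log2 CPM was Ahnak, itself a member (Pearson r = 0.995 among 5071 genes with a mean of at least 20 CPM). Lgals1 was most like Gna15 (0.989), with Vim next (0.985), and Vim most like Reep5 (0.989). S100a6 was most like Ybx3 (0.979), S100a11 like Prr13 (0.983), Lgals3 like Yipf1 (0.985) and Anxa2 like Arpc4 (0.967). These correlations are descriptions over samples that share tubes.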

How the data were processed

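Deposited counts were UMIs per gene and cell. Reads had been processed with Cell Ranger 3.0.2 and mm10, per the submitters' processing notes; other steps are not given in the sources used here. The deposited cell annotation gave each cell's sample, class and cluster, and 47 metadata columns were not used. Mitochondrial shares are each cell's percent as the authors deposited it. No further cell filter and no doublet removal was applied, and 99 barcodes occurred in more than 1 sample (0 within a V3 tube). The 10 members and all gene lists were chosen with earlier results of these data known.

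Per-sample sums, over all cells or per class with at least 20 cells, entered edgeR 4.0.16 (R 4.3.3) with TMM scaling, filterByExpr (min.count 10), its quasi-likelihood F test and Benjamini-Hochberg adjustment over all genes tested, called at 0.05. V2 (4 samples) and V3 (14 samples) were fitted separately. SE is the size of the log2 fold change divided by the root of F. On simulated counts with 200 genes changed 2-fold, 90% were recovered for the V2 mice (10498 genes) and 74.5% for the V3 mice (10529 genes). False calls in the same runs numbered 32 for the V2 mice and 10 for the V3 mice. For shares of cells, each cell was thinned to 1500 UMIs; the lowest total was 1542, so no cell was dropped. Intervals from counting were not used, and p-values measure the spread between samples.

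The series' design text gives each chimera mouse its own hashtag, and same-numbered chimera samples share one, so the numbers pair samples of 1 recipient; the correlations of their deviations from the group means were 0.0599, 0.0529 and 0.0215. Alternatives used limma 3.58.1 and DESeq2 1.42.0. Reads of S100a4 and Gm42674, of Anxa1 and 1500015L24Rik, and of Anxa2 and Gm16144 could overlap, and S100a11 and Lgals1 have named pseudogenes, so these counts carry that uncertainty. Named genes were the members, and of each related list up to 4 genes with the lowest p per comparison and a mean of at least 20 CPM, plus the 3 genes most like each member. Clusters, tubes, NKT cells, CD8 T and NK markers and the marker genes of V2 resting cells named in the text were singled out after their values were seen. Python 3.11.15 with pandas 2.3.3 made the sums.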

Additional observations from a re-analysis of the deposited data

Results flagged for a closer look

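The genotype difference in V3 mice (∆Foxp3 minus WT) was compared with that in chimeras by an interaction term in edgeR's quasi-likelihood test, and the members named here differed between these settings (log2 difference of the 2 genotype effects ± SE, adjusted p under 0.05). Positive values mean that the difference ∆Foxp3 minus WT was higher in mice than in chimeras. In the V3 mice that difference also carries age (∆Foxp3 of 3 weeks, WT of 9 weeks), so it is not an effect of genotype alone. Over all cells, all 10 members differed, against 18.7% of all genes in that direction: S100a4 4.40 ± 0.51, S100a6 3.37 ± 0.61, S100a10 1.88 ± 0.26, S100a11 2.13 ± 0.33, Lgals1 3.20 ± 0.41, Lgals3 5.83 ± 0.49, Anxa1 3.61 ± 0.53, Anxa2 3.73 ± 0.53, Vim 2.82 ± 0.28 and Ahnak 3.13 ± 0.37. The adjusted p lay between 7.43e-07 for Lgals3 and 0.000593 for S100a6.

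In annotated resting Tconv cells all 10 differed, against 17.6% of all genes: S100a4 6.45 ± 0.25, S100a6 6.44 ± 0.23, S100a10 2.06 ± 0.11, S100a11 2.64 ± 0.10, Lgals1 3.43 ± 0.20, Lgals3 6.61 ± 0.36, Anxa1 4.10 ± 0.75, Anxa2 4.56 ± 0.30, Vim 2.77 ± 0.16 and Ahnak 4.96 ± 0.24. In V3 ∆Foxp3 mice most cells of this class had no Ccr7 UMI, and in those with one every member but Anxa1 passed (7.55% of all genes).

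In annotated activated Tconv cells 8 differed, against 4.67% of all genes: S100a4 2.24 ± 0.31, S100a6 1.34 ± 0.38, Lgals1 2.00 ± 0.38, Lgals3 4.01 ± 0.48, Anxa1 1.80 ± 0.49, Anxa2 1.89 ± 0.42, Vim 2.29 ± 0.37 and Ahnak 1.08 ± 0.26. In Treg-annotated cells 8 of the 9 tested differed, against 1.56% of all genes: S100a4 3.71 ± 0.37, S100a6 1.41 ± 0.28, S100a11 1.09 ± 0.29, Lgals1 1.73 ± 0.31, Anxa2 3.93 ± 0.61, Vim 1.87 ± 0.31 and Ahnak 2.24 ± 0.30. Lgals3, the remaining one, had an adjusted p of 3.70e-05 and rests on 1 UMI in each WT mouse sample, so no size is given. Mice and chimeras differ in age and host, which cannot be told apart from the setting.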

How the results depend on the processing

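Of 286 counts of called members under alternatives, 261 stayed within 1.5 times the reported count and 25 moved; of 1635 single-gene values, 1545 kept direction and call, 55 lost the call, 30 gained it and 5 reversed. Values without a test moved more: of 80 mean shares of cells with a UMI, 76 moved by more than 1 SD with 1500 UMIs per cell and 78 with 1000, and of 30 class-weighted ratios 14 moved with ∆Foxp3 shares. The causes were not tested. The replicate block pairs chimera samples by recipient, and each pair is split over tubes. With that block, members called in chimeras were 2 over all cells, 1 in resting, 3 in activated and 1 in Treg-annotated cells, against 0 without. No other count of calls moved by over 1.5 times. V2 letters share only a letter (correlation 0.0771). The tube block and the fit of the compared groups only each gave 1 in chimera resting cells. With no filter on low counts the chimera counts were 9, 2, 7 and 3 in the same order, and WT chimera against WT mice gave 2. The shares of all genes called without that filter are not given here. Without cells holding 2 or more markers of other cell types, which removed 11883 cells, they were 1 over all cells, 1 in activated and 2 in Treg-annotated cells, and sorted Treg against Tconv gave 1, S100a10. Cells with Ccr7 UMIs, chosen after seeing the data as were the tube block and the myeloid filter, gave 10 in V3 resting cells and 9 for the mice minus chimera effect. Limma gave 5 for that effect in activated cells. Apart from the cells with Ccr7 UMIs, no share of all genes called is given here for these alternatives.

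Leaving out 1 sample at a time gave 8 to 10 called members over all cells of V2 mice and 10 to 10 of V3 mice, 0 to 0 in chimeras, 1 to 8 between sorted cells, 10 to 10 for ∆Foxp3 chimera against ∆Foxp3 mice and 0 to 0 for WT chimera against WT mice. In resting cells it gave 5 to 10 in V2, 10 to 10 in V3 and 0 to 1 in chimeras. In activated cells it gave 9 to 10 in V2, 2 to 6 in V3 and 0 to 3 in chimeras. In Treg-annotated cells it gave 7 to 8 in V2, 7 to 8 in V3 and 0 to 0 in chimeras. For the mice minus chimera effect it gave 10 to 10 over all and resting cells, 3 to 9 in activated and 7 to 9 in Treg-annotated cells. A lone sample left in a group was assumed to vary like the others. Shares of all genes called with a sample left out are not given here, so these counts have no background beside them.

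Anxa1 turned to 0.0596 in chimeras without WT sample 1 and to -0.0547 between sorted cells without other-marker cells. In V2 resting cells with Ccr7 UMIs S100a11 was -0.0284, and without ∆Foxp3 sample B Vim was -0.12 and Ahnak -0.0054. Over all samples left out in turn, Anxa1 ran to -0.77 in chimeras, and in V2 resting cells Vim ran to 0.25 and Ahnak to 1.27. V3 Treg-annotated cells without other-marker cells could not be fitted.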
